A study of Mus musculus with 2 samples.

Results

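The insulin-like growth factor (IGF) axis was represented by 9 genes, those of the ligand Igf1, its receptor Igf1r and the binding proteins Igfbp1 to Igfbp7, out of 18193 genes to which the array annotation gave a symbol of their own. The list of members was drawn up with earlier results of these arrays known, and every probe set that carried only a member's symbol was used. This gave 25 probe sets, between 1 and 6 per gene, and no member shared a probe set with another symbol. The groups were 1 Affymetrix array of Snail1 KO cells and 1 array of WT cells. Both held primary endothelial cells, the lining cells of blood vessels, cultured from C57/BL6 embryos with floxed Snail1 alleles (Snail1f/f) at embryonic day 10.5. The Snail1 KO cells had received an adenovirus carrying Cre and the WT cells an adenovirus carrying β-galactosidase, both followed by days of recovery in medium with fetal bovine serum and an endothelial growth factor cocktail. The WT cells therefore carried the floxed alleles too, and no array held Cre-infected cells without them, so loss of Snail1 and exposure to Cre cannot be told apart. With 1 array per group there was no replicate error, no difference was tested, and differences are described by size.

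IGF1 is a secreted growth and survival factor that acts through the receptor tyrosine kinase IGF1R, which signals by way of insulin receptor substrates to the PI3-kinase and AKT pathway. Most IGF in body fluids is held by the IGF-binding proteins, which prolong its life and limit or aid its access to the receptor, and which proteases such as pappalysin can open. Several binding proteins also act without IGF, through cell surface receptors or integrins. In blood vessels the ligand supports endothelial survival and sprouting, and Igfbp3 has been used as a marker of sprouting tip cells.

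Each value is a log2 expression value after robust multi-array averaging (RMA), a background-corrected and quantile-normalised summary of the probes of a set, and each difference is the value in Snail1 KO less that in WT. Levels of different probe sets are not comparable, because each has its own probes. The filter level was 3.97, the 40th percentile of the mean of both arrays over all probe sets other than controls. It marks dim probe sets and is not a test of detection. The spread of differences served as a yardstick, with a robust SD of 0.32 over the 12874 genes analysed. It holds probe error and any true change but no variation between cultures. Median values of the arrays were 4.70 for Snail1 KO and 4.66 for WT. The probe set of Snai1, the targeted gene, was at 3.59 in Snail1 KO cells, below the filter level, and at 5.33 in WT cells, so it was lower by an amount that is not exact. The 4 control probe sets for phage Cre read 11.87 to 12.86 on the Snail1 KO array and 2.69 to 3.83 on the WT array. Such probe sets serve as hybridisation controls for an added Cre transcript, and whether the signal came from that or from the virus was not tested. The 14 probe sets of the companion bioB, bioC and bioD controls differed by -0.42 to 0.27, with a median of -0.03. All 8 endothelial markers were above the filter on both arrays, with VE-cadherin (Cdh5) at 11.46 in Snail1 KO and 11.34 in WT cells. The endothelial label therefore fitted the markers. Their levels were not all alike on the 2 arrays. Differences ran from -0.40 (Emcn) to 1.08 (Cldn5, 2.11-fold higher in Snail1 KO cells), with a median of 0.26. Of the 8 markers, 6 were higher and 2 lower in Snail1 KO cells.

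The 9 genes did not move as a unit. Igfbp3 was lower and Igf1 higher in Snail1 KO cells in every probe set. Igf1r, Igfbp4 and Igfbp7 stayed well within 2-fold in all of theirs. The brighter Igfbp5 probe set differed by -0.15, within the robust SD of 0.37 at its level, and the other was dim in Snail1 KO cells. Of the 25 probe sets, 23 passed the filter. Among these, 2 were at least 2-fold higher (both of Igf1), 2 were at least 2-fold lower (1 of Igfbp3 and 1 of Igfbp5) and 19 lay within 2-fold. The Igfbp5 probe set was below the filter level in Snail1 KO cells and passed only through its WT value, so nothing is read from its place in this count. Over all 23310 single-symbol probe sets that passed, the share past 2-fold was 1.57% on the higher side and 1.52% on the lower side. The median difference was 0.06 over the 23 member probe sets and 0.02 over all. Counted by the brightest probe set of each gene, 7 members passed, of which 1, Igfbp3, was at least 2-fold lower and none was 2-fold higher. Among all genes analysed the shares were 1.84% lower and 0.971% higher. The brightest Igf1 probe set was not among those past 2-fold, so the gene count leaves out its larger differences. Median differences were -0.15 over the 7 genes and -0.01 over all genes.

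**Figure D1:**
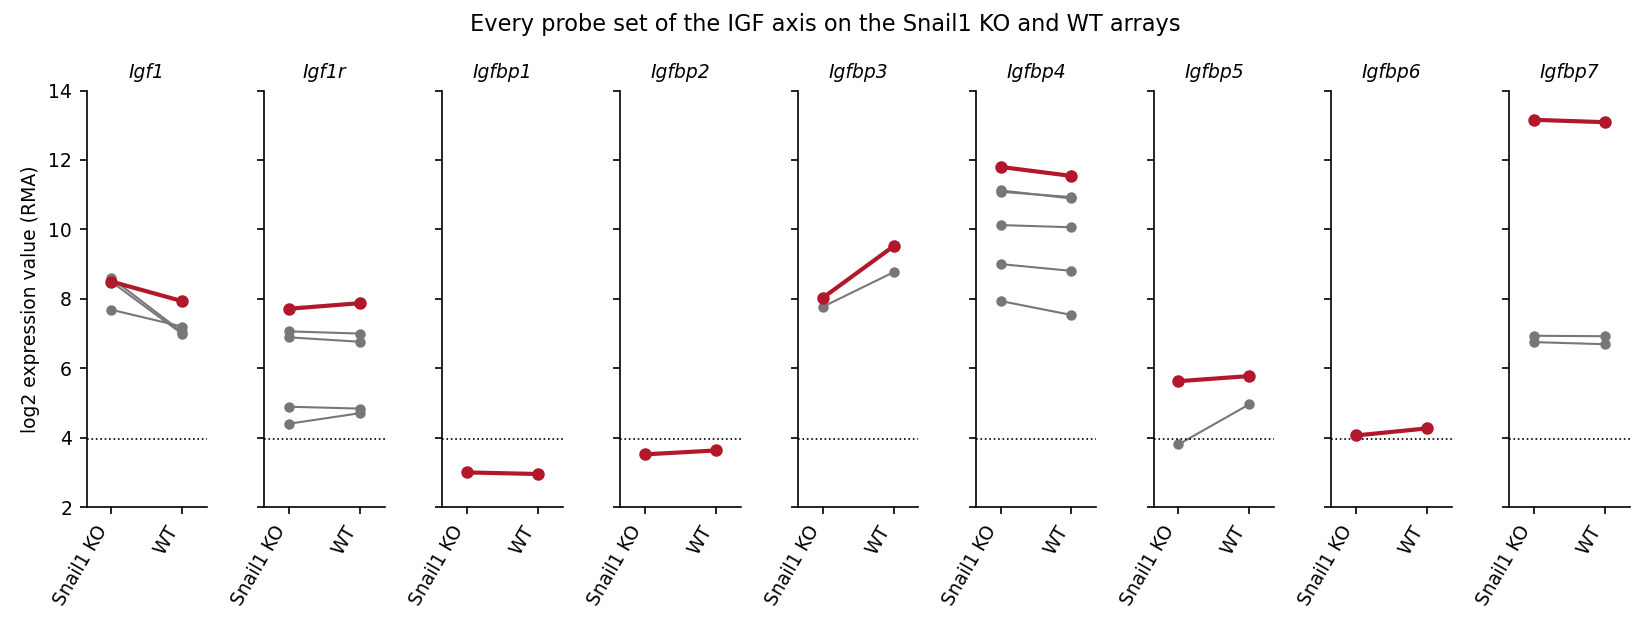
Log2 RMA expression value (y axis) of each of the 25 probe sets on the Snail1 KO array and the WT array (x axis), with a panel per gene and a line joining the values of a probe set. The red line is the brightest probe set of the gene, grey lines are the others, and the dotted line is the filter level of 3.97. Both Igfbp3 lines lie lower in Snail1 KO, all 4 Igf1 lines lie higher, and the lines of Igf1r, Igfbp4 and Igfbp7 are nearly flat.

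Igfbp3, the main carrier of IGF in serum and also a binder of cell surface proteins, had the largest difference of the members by brightest probe set. Its brightest probe set, 1423062_at, was at 8.03 in Snail1 KO cells, against 9.52 in WT cells, a log2 difference of -1.49 or 2.81-fold lower. Its other probe set, 1458268_s_at, was at 7.77 in Snail1 KO cells and 8.77 in WT cells, a difference of -0.997, just short of 2-fold. Both values on the Snail1 KO array were far above the filter level, so the lower reading was not at the dim end of the scale. The robust SD of the difference among probe sets of like level was 0.32 and 0.31 for these probe sets. The difference between the 2 probe sets was 0.49 log2 units, and among the 3395 genes with 2 analysed probe sets 18.0% had a gap at least as wide. Both probe sets had the same sign, as in 67.1% of those genes.

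The promoter of Igfbp3 is shown because it is the member with the largest difference by brightest probe set (2 Igf1 probe sets, not the brightest of that gene, differed by more) and Snail1 is known to bind the E-box CAGGTG. The sequence was taken from RefSeq, GRCm38.p6, chr11:7213874-7214173, minus strand, and covers 250 bases before and 50 after the annotated start. Capitals mark the only match to CAGGTG or its reverse complement CACCTG, whose first base lies 172 bases before the start.
Igfbp3: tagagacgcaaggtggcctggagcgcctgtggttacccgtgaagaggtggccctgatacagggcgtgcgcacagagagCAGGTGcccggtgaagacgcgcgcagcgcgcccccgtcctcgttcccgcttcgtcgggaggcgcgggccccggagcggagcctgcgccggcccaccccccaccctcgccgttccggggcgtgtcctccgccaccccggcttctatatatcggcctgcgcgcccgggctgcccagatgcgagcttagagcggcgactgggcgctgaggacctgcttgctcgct

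The promoter of Igf1, the member that was higher in all its probe sets with the widest differences, is shown beside it (RefSeq, GRCm38.p6, chr10:87860861-87861160, plus strand). It held no match to the motif on either strand and is printed without capitals.
Igf1: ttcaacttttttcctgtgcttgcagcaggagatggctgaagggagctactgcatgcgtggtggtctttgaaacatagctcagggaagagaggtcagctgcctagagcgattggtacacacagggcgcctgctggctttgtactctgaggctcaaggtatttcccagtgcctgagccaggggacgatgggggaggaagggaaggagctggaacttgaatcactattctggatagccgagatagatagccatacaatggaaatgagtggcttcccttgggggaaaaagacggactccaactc

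All 9 members had a promoter sequence, in 10 windows of 300 bases since Igfbp2 had 2 starts. Matches were found in 2 windows, those of Igfbp3 and of the downstream Igfbp2 start, where the match began at base 20 after the start. Of all 32851 promoter windows of this length, 20.2% held the motif, so 2 of 10 is close to the background share. A match describes letters and not a bound site, and in the other 8 windows no match says only that these letters are not there. The GC content of the member windows ran from 49.7% to 76.0%.

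Igf1 was higher in Snail1 KO cells in 4 of 4 probe sets, but by different amounts. Probe set 1437401_at was at 8.60 in Snail1 KO cells and 7.04 in WT cells, a difference of 1.56 (2.94-fold). Probe set 1434413_at was at 8.49 in Snail1 KO cells and 6.99 in WT cells, a difference of 1.501 (2.83-fold). These were the larger pair. The brightest probe set, 1452014_a_at, was at 8.50 in Snail1 KO cells and 7.94 in WT cells, a smaller difference of 0.56 (1.48-fold). Probe set 1419519_at was at 7.69 in Snail1 KO cells and 7.21 in WT cells, a difference of 0.48 (1.40-fold). The range over the 4 was 1.07 log2 units, against a median range of 0.52 over the 658 genes with 4 analysed probe sets, of which 8.21% had a range at least as wide. All 4 probe sets had the same sign, as in 36.2% of those genes. Which part of the transcript each probe set reads is not given in the sources used here, so whether the pairs read different Igf1 transcripts was not tested. Averaged over its probe sets Igf1 was 2.04-fold higher.

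The receptor gene Igf1r differed little. Its brightest probe set was at 7.72 in Snail1 KO cells and 7.88 in WT cells, a difference of -0.16. The other 4 probe sets ranged from -0.30 to 0.13, with 3 of the 5 higher and 2 lower. The largest of these differences, -0.30 in its dimmest probe set, was within the robust SD of 0.31 at that level.

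All probe sets of Igfbp4 and Igfbp7 were above the filter level on both arrays. Igfbp4, a binding protein that inhibits IGF action and is released from it by pappalysin cleavage, was slightly higher in 6 of 6 probe sets, with differences from 0.06 to 0.40. Its brightest probe set was at 11.80 in Snail1 KO cells and 11.54 in WT cells, 1.20-fold higher. All 6 probe sets of Igfbp4 had the same sign, as in 35.1% of the 114 genes with 6 analysed probe sets. All 6 carry suffixes (_a_at, _s_at or _x_at) that mark probes shared between transcripts or open to cross-hybridisation, and they may read the same transcripts, so they are not independent. Igfbp7, a low-affinity IGF binder abundant in endothelium, was at 13.16 in Snail1 KO cells and 13.09 in WT cells in its brightest probe set. Its other 2 probe sets differed by 0.01 and 0.06. The range of 0.06 over its 3 probe sets was among the narrowest, since 98.6% of the 1591 genes with 3 analysed probe sets had a range at least as wide.

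Igfbp5, a matrix-binding member of the family, gave unlike readings in its 2 probe sets. Probe set 1422313_a_at was at 5.63 in Snail1 KO cells and 5.78 in WT cells, a difference of -0.15. Probe set 1452114_s_at was at 3.81 in Snail1 KO cells, below the filter level, and at 4.97 in WT cells, a difference of -1.16 whose size is not exact because of the dim reading. A difference for Igfbp5 therefore depends on the probe set.

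The remaining binding proteins read near or below the filter level. Igfbp6, which prefers IGF2 over IGF1, was at 4.07 in Snail1 KO cells and 4.28 in WT cells. Igfbp1, a binding protein made mainly by liver, was at 3.01 in Snail1 KO cells and 2.96 in WT cells. Igfbp2 was at 3.53 in Snail1 KO cells and 3.64 in WT cells. Igfbp1 and Igfbp2 lay below the filter level on both arrays and each has a single probe set here, so nothing is read from their small differences. In the RefSeq gene order of GRCm38.p6, Igfbp1 is the next protein-coding gene to Igfbp3 on chromosome 11, and Igfbp2 to Igfbp5 on chromosome 1. Nothing is read from this order, since Igfbp1 and Igfbp2 were below the filter level and the difference of Igfbp5 depended on the probe set.

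**Figure D2:**
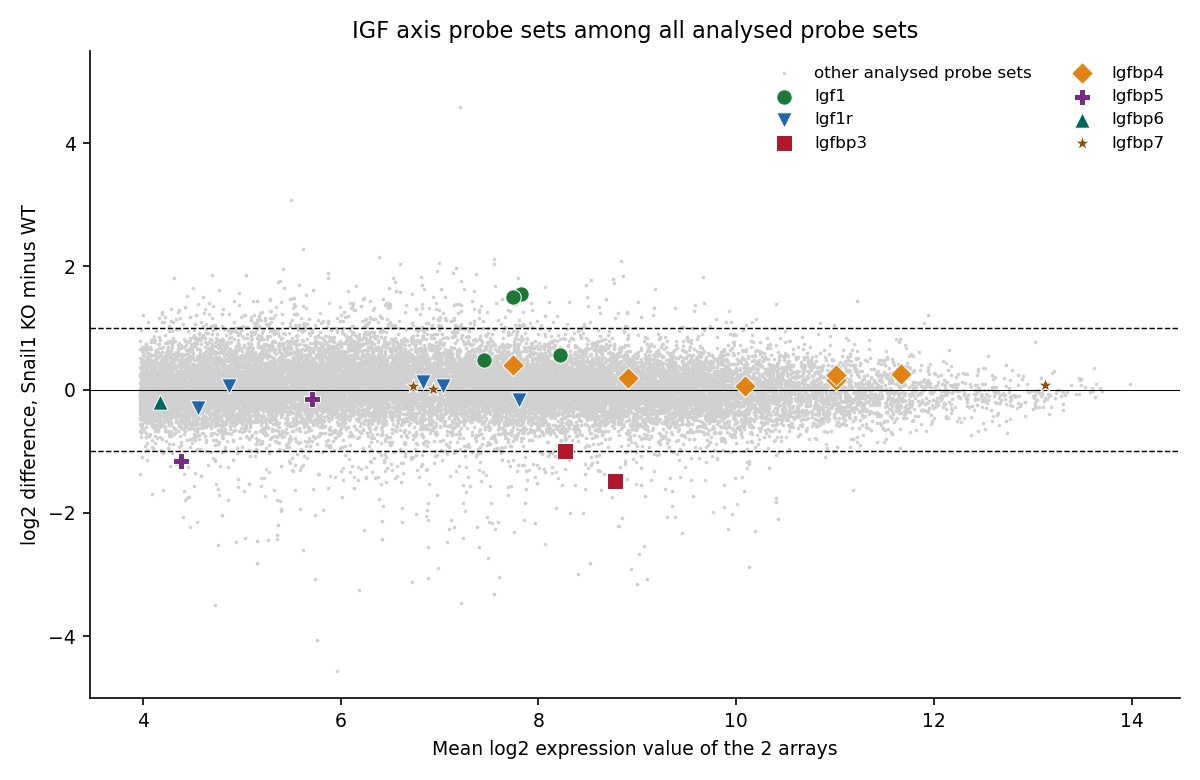
Log2 difference, Snail1 KO minus WT (y axis), against the mean log2 value of both arrays (x axis) for the 23 member probe sets that passed the filter (coloured symbols, by gene) and the other analysed probe sets (grey). Dashed lines mark 2-fold. The Igfbp3 squares at -1.49 and -0.997, the larger Igf1 pair at 1.501 and 1.56 and the dimmer Igfbp5 probe set at -1.16 lie at the edge of the grey cloud, while the probe sets of Igf1r, Igfbp4, Igfbp6 and Igfbp7 lie inside it.

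Markers of other cell types were read beside these results. Of 7 pericyte and smooth muscle markers, 5 were analysed and 2 were at least 2-fold lower in Snail1 KO cells, Tagln (5.83-fold) and Acta2 (3.60-fold), with a list median of -0.81. The summed linear value of the 7 was 857.1 in Snail1 KO and 3378 in WT cells, a sum made mostly of Acta2 and Tagln. Without these the other 5 summed to 89.5 in Snail1 KO and 115.4 in WT cells. Among them Cnn1 was 1.75-fold lower, at 4.23 in Snail1 KO and 5.04 in WT cells, and Cspg4 differed by 0.10. Myh11, which did not pass the filter, was at 3.25 in Snail1 KO and 4.16 in WT cells. The pericyte marker Rgs5 did not reach the filter level on either array, and Pdgfrb was at 4.05 in Snail1 KO and 4.45 in WT cells. Of 7 fibroblast markers, 4 were analysed, with a median of 0.14 and none past 2-fold. Col3a1 was at 6.33 in Snail1 KO and 7.33 in WT cells, a difference of -0.998 in the direction of Igfbp3 and just short of 2-fold, and the other 3 differed by 0.12 to 0.31. For all 7 markers the summed linear value was 1089 in Snail1 KO and 1051 in WT cells. Dcn was well above the filter level, at 9.62 in Snail1 KO and 9.45 in WT cells. So was Col1a2, at 7.26 in Snail1 KO and 6.95 in WT cells. Pdgfra and Lum were below the filter level on both arrays. The part of these cells in the Igfbp3 and Igf1 differences was not tested, and in bulk samples fewer cells of a type and less RNA per cell cannot be told apart. Of 5 hepatocyte and 5 leukocyte markers, 3 each were analysed and none was past 2-fold. Alb and Ptprc were below the filter level on both arrays, but other markers were above it on both. Leukocyte markers Cd14 (8.60 in Snail1 KO, 8.43 in WT), Cd68 (7.20 and 7.27) and Csf1r (4.66 and 4.91) were among these. So were hepatocyte markers Apoa2 (6.86 in Snail1 KO, 6.70 in WT), Ttr (5.34 and 5.64) and Apoa1 (4.28 and 4.58).

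Genes that work with the axis were taken from 6 lists with 54 analysed genes. Of these, 4 were lower and 1 was higher by at least 2-fold in Snail1 KO cells, and 49 lay within 2-fold. Among all genes analysed the shares past 2-fold were 1.84% lower and 0.971% higher. The median difference was 0.11, against -0.01 over all genes analysed. These lists were written with results of these arrays known, so their counts are a description.

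Other ligands and receptors had a median difference of 0.30 over 5 analysed genes. Igf2, the ligand of the embryo, was the gene past 2-fold, at 12.55 in Snail1 KO cells and 11.33 in WT cells (2.33-fold higher), and its other probe set was 2.64-fold higher. The scavenging receptor Igf2r was at 8.88 in Snail1 KO and 8.58 in WT cells, and the 3 probe sets of the insulin receptor gene Insr differed by -0.10 to 0.43. Ins2 differed by -0.43 at a dim level, 4.80 in Snail1 KO and 5.23 in WT cells. Igf1, Igf2 and Igf2r thus each differed in the higher direction in all their probe sets, with the second Igf2r probe set at 0.60, and those past 2-fold were both of Igf2 and 2 of the 4 of Igf1.

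Downstream of the receptor, Irs1, the insulin receptor substrate that couples IGF1R to PI3-kinase, was at 5.36 in Snail1 KO cells and 7.49 in WT cells in its only probe set, a difference of -2.12 or 4.36-fold lower. The related Irs2 was at 4.79 in Snail1 KO cells and 5.17 in WT cells, a difference of -0.38. Of 27 analysed signalling genes, Irs1 was the only gene past 2-fold by brightest probe set, 18 differences were above 0 and 8 below, and the median was 0.15. Rictor, a subunit of the mTORC2 complex, was 1.64-fold higher by brightest probe set, but its analysed probe sets ran from -0.27 to 0.80. The adaptor Grb14 was 1.64-fold higher, at 5.06 in Snail1 KO and 4.35 in WT cells. The kinases Akt1 and Akt2 differed by -0.02 and -0.20, and the transcription factor Foxo1, which AKT restrains, by 0.21. The analysed probe sets of Akt1 ran from -0.17 to 0.25 and those of Akt2 from -0.20 to 0.12.

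Other secreted proteins with an IGFBP-type domain, which are not classical IGF carriers, supplied the remaining 3 genes past 2-fold. Esm1, an endothelial proteoglycan, was 5.84-fold lower in its single probe set. Ccn1, a matricellular protein, was at 9.53 in Snail1 KO and 11.28 in WT cells (3.37-fold lower), and its 4 probe sets ran from -1.75 to -1.27. Ccn4 was at 5.92 in Snail1 KO and 7.01 in WT cells (2.13-fold lower), with a further probe set at -1.14. Ccn2 was at 12.21 in Snail1 KO and 12.84 in WT cells in its single probe set, 1.55-fold lower. Ccn3 and Kazald1 differed in the other direction, by 0.92 and 0.77. Over the 9 analysed genes of the list, 5 differences were below 0 and 4 above, with a median of -0.01.

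Proteases that cleave binding proteins, and their inhibitors, had no gene past 2-fold among 5 analysed, with a median of -0.06. The pappalysin gene Pappa was 1.42-fold higher, at 5.10 in Snail1 KO and 4.59 in WT cells. Its inhibitor Stc1 was at 7.45 in Snail1 KO and 7.89 in WT cells, a difference of -0.45. The serine protease Htra1 differed by -0.53, with its other probe set at -0.23. Stc2 differed by -0.06, with its 3 probe sets between -0.21 and 0.37. Among surface partners of binding proteins, none of 6 was past 2-fold and the median was -0.10. The analysed probe sets of the integrin subunit Itga5 ran from -0.70 to 0.28, and those of Tmem219, described as a receptor for IGFBP3 in human cells, from -0.40 to 0.33. Itgav, another integrin subunit, differed by 0.19, but its analysed probe sets ran from -0.33 to 0.19. The endocytic receptor Lrp1 differed by -0.13. Of the IGF2 mRNA-binding proteins, Igf2bp3 differed by 0.59, with its 6 probe sets between 0.14 and 0.93, and Igf2bp1 by 0.17, with another probe set at -0.81.

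**Figure D3:**
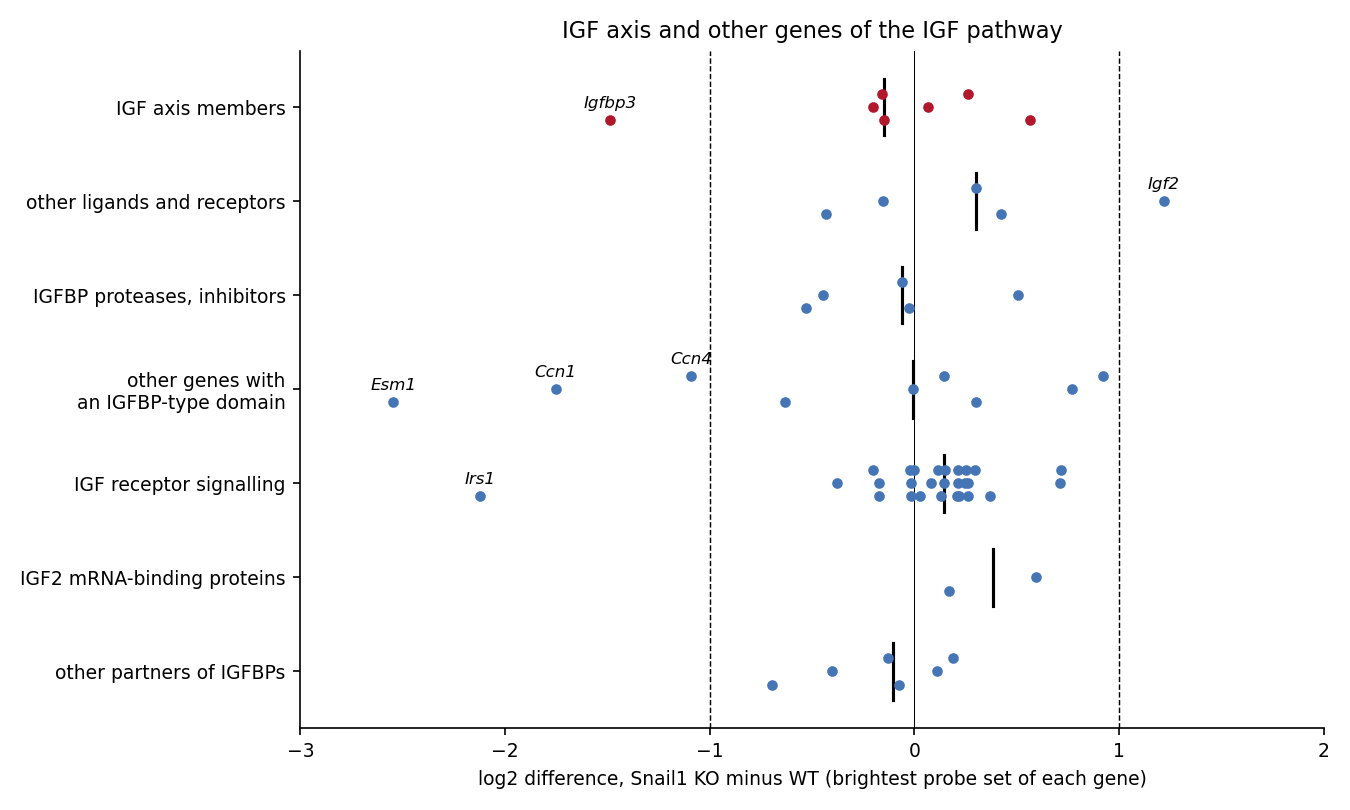
Log2 difference, Snail1 KO minus WT, of the brightest probe set of each analysed gene (x axis, 1 point per gene) in the IGF axis (red) and 6 lists of pathway genes (blue), with black bars at the list medians and dashed lines at 2-fold. Genes past 2-fold are named: Igfbp3, Esm1, Ccn1, Ccn4 and Irs1 on the lower side and Igf2 on the higher side.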

How the data were processed

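The authors deposited 1 log2 value per probe set and array. RMA and affy are the tools that the submitters' processing notes name. No version or setting of either is given in the sources used here. The quantile step of RMA hides a change in total mRNA, and RMA compresses differences of dim probe sets. There were 45101 probe sets, 64 of them controls. The platform annotation gave 34945 a single symbol, 932 several and 9160 none, and only those with 1 symbol were used. No column was left unused.

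Groups came from the sample titles. The probe set with the highest mean stood for its gene, genes were kept above the 40th percentile of mean level, and differences were counted at 2-fold. Robust SDs (scaled median absolute deviations) were taken in 20 bins of level. All 9 members were named in every probe set, and of the pathway lists mainly the up to 4 members with the largest difference. Members and lists were chosen with earlier results of these data known. Some genes of the pathway lists were not analysed here. The counting step was checked on simulated normal noise with added changes larger than the difference of any member probe set. This check does not bear on how sure the member counts are. Python 3.11.15, pandas 2.3.3 and statsmodels 0.14.6 (loess trend) were used. The number of arrays limits the precision.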

Additional observations from a re-analysis of the deposited data

How the results depend on the processing

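No paired analysis was possible because each group holds a single array, and for the same reason no array could be left out. Of the differences of the 9 members under other settings, 21 of 24 moved by less than the robust SD at their level. None changed sign where it was past 2-fold. Many of the 24 could not move, so this count does not measure robustness. Averaging leaves a gene with 1 probe set unchanged. Leaving out suffixed probe sets kept the same probe set for Igf1r, Igfbp1, Igfbp3, Igfbp6 and Igfbp7. The loess trend was smaller than the lowest robust SD of any bin, 0.16. When all probe sets of a gene were averaged, Igf1 differed by 1.03, so the number of members 2-fold higher was 1, and Igfbp5 differed by -0.65. Without probe sets ending in _s_at, _x_at or _a_at, Igf1 differed by 1.56 and members 2-fold higher again numbered 1, while member probe sets 2-fold lower numbered 1 and Igfbp2, Igfbp4 and Igfbp5 had no value. With the filter at the 60th percentile, which removes the dimmer Igfbp5 probe set, member probe sets 2-fold lower numbered 1. Counts depend on the threshold by construction. At 1.5-fold, 6 pathway genes were higher. At 3-fold, the number of members lower, of member probe sets higher, of member probe sets lower and of pathway genes higher was 0 each. The other 31 counts stayed within 1.5 times, also after centring on a loess trend, which lay between -0.13 and 0.08. Single probe sets leave Irs1, Igfbp1, Igfbp2 and Igfbp6 without a second reading, and signal over background was not measured.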

Other observations

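Antisense transcripts of the IGF ligand genes had probe sets of their own. Igf2os was at 4.92 in Snail1 KO cells and 5.35 in WT cells, a log2 difference of -0.43, opposite in sign to Igf2. Igf1os was at 2.92 in Snail1 KO cells and 2.81 in WT cells, below the filter level on both arrays.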
